A study of Mus musculus with 4 samples.

Results

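Retinoic acid is made, carried, sensed and cleared by a small set of gene products, and 9 genes of that set are described here in the posterior part of E9.5 mouse embryos that lacked Jmjd3 (Jmjd3-/-) and of wild-type embryos. They comprised the synthesis gene Aldh1a2, the breakdown gene Cyp26a1, the binding protein genes Crabp1 and Crabp2, and the receptor genes Rara, Rarb, Rarg, Rxra and Rxrg. Their probes were found by matching the accession of each array probe to the RefSeq gene table, which gave 11 probes for the 9 genes among 41174 probes on the array and 18224 named genes. The product of Jmjd3, a gene whose current symbol is Kdm6b, is a histone demethylase that takes a silencing methyl mark off histone H3. Embryos of both genotypes came from matings between Jmjd3+/- mice, were staged at E9.5 by time and somite number, and the labels name no other allele or treatment. Total RNA was labelled with Cy3 and each sample was hybridised to its own 1-colour Agilent array, with 2 samples per genotype, numbered 1 and 9 for Jmjd3-/- and 3 and 4 for wild-type as in the labels. The labels call the samples independent and do not say how many embryos each holds, so p-values measure only the spread between these samples.

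In vertebrate embryos retinaldehyde dehydrogenase, the product of Aldh1a2, makes retinoic acid in the trunk mesoderm, and enzymes of the Cyp26 family destroy it in the tail bud, so that the growing tip of the body is kept low in retinoic acid. Inside cells retinoic acid is bound by the cellular binding proteins Crabp1 and Crabp2 and acts through nuclear receptors, in which a retinoic acid receptor (Rara, Rarb or Rarg) pairs with a retinoid X receptor (Rxra, Rxrb or Rxrg) on paired hexamer motifs in DNA. Rarb and Cyp26a1 are well known to be induced by retinoic acid itself through such motifs. In the trunk, retinoic acid promotes neural differentiation and opposes Fgf8 signalling of the tail bud.

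The promoters of Rarb and Cyp26a1 are shown because each held the paired motif through which retinoic acid receptors act, while their mean differences from wild-type had opposite signs. The 250 bases before the start of each gene are given 5′ to 3′ on the gene's strand from RefSeq, build GRCm38.p6, with the hexamers of the motif in capitals. The Cyp26a1 stretch lies at chr19:37697558-37697807 on the plus strand and the Rarb stretch at chr14:16575477-16575726 on the minus strand.
Cyp26a1: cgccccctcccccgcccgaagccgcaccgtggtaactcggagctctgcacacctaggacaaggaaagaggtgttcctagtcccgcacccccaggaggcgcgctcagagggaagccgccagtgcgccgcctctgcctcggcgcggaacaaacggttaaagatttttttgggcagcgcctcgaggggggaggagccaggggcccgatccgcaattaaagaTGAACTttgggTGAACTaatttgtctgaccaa
Rarb: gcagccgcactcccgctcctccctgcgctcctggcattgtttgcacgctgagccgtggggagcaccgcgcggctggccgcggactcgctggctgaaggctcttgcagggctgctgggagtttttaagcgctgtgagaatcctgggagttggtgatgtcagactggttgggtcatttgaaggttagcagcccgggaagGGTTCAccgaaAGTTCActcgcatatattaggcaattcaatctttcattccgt
The search covered the hexamer AGGTCA, its variant AGTTCA, the form GGGTCA and the form GGTTCA as direct repeats on both strands with a spacer of 1, 2 or 5 bases, called DR1, DR2 and DR5, over the 250 bases before and 50 bases after each start. Overlap between these motifs was allowed. The Rarb motif was a DR5 on the strand of the gene, from 53 to 37 bases before the start. The Cyp26a1 motif was a DR5 on the opposite strand, from 32 to 16 bases before the start, where the hexamer AGTTCA appears on the printed strand as TGAACT. Of 32851 promoters in the table, 0.0974% held a DR5, 0.268% a DR2 and 0.222% a DR1. Of the 9 genes, 8 had a promoter in that table, with 14 promoters in all, and the other 12 promoters held none of these letters. Crabp2 had no entry. A match is a description of letters and shows no binding.

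Kdm6b itself read 0.35 and 0.11 on the normalised log2 scale in samples 1 and 9 of Jmjd3-/-, and 2.15 and 2.23 in samples 3 and 4 of wild-type, a log2 difference of −1.96 (SE 0.12, limma adjusted p = 0.149). The sources used here do not say whether its probe lies in the deleted part of the gene. Normalised log2 signal means the log2 of the processed spot intensity less the 75th percentile of that array, so that 0 is the signal of a probe at that percentile, and probes of different genes cannot be ranked by it. Between 59.8% and 63.0% of probes were well above background per array. Of the tail bud marker genes listed for this tissue, 13 of 14 had a probe and all 13 were above background on all 4 arrays. The arrays of Jmjd3-/- differed from each other more than those of wild-type, with 431 genes over 2-fold apart against 157, of 13583 genes tested. Jmjd3-/- replicate 9 was over 2-fold apart from wild-type replicates 3 and 4 at 354 and 332 genes. It was thus nearer to either wild-type array than to Jmjd3-/- replicate 1 by this count. Replicate 1 was farther from the wild-type mean than replicate 9 at 67.8% of all genes and at 9 of 9 retinoid genes. Each Jmjd3-/- array lay outside the wild-type range at 9 of 9 retinoid genes, where 85% of all genes did in replicate 1 and 77.2% in replicate 9.

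In Jmjd3-/- samples Cyp26a1 and Rarg had higher mean signals, and Aldh1a2, Crabp1, Crabp2, Rara, Rarb, Rxra and Rxrg had lower ones, but none of the 9 differences passed an adjusted p under 0.05. All 9 genes were above background on all 4 arrays and were tested. In the whole table limma called 3 genes higher and 2 lower, which is 0.0368% of the 13583 tested. At an unadjusted p under 0.05, 3 of the 9 genes passed, with Cyp26a1 and Rarg higher and Rxrg lower, where 11.1% of all genes did. That count became 8 when Jmjd3-/- replicate 9 was left out, 1 when wild-type replicate 3 was and 0 when wild-type replicate 4 was. The genotypes did not overlap at 7 of the 9 genes, 2 higher and 5 lower, where 46.7% of all genes did not overlap, 23% higher and 23.7% lower. The median log2 difference of the 9 genes was −0.39, and over all genes tested it was −0.01. Differences are given as Jmjd3-/- minus wild-type on the log2 scale, n = 2 samples per genotype, and its SE is the moderated one from limma.

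**Figure D1:**
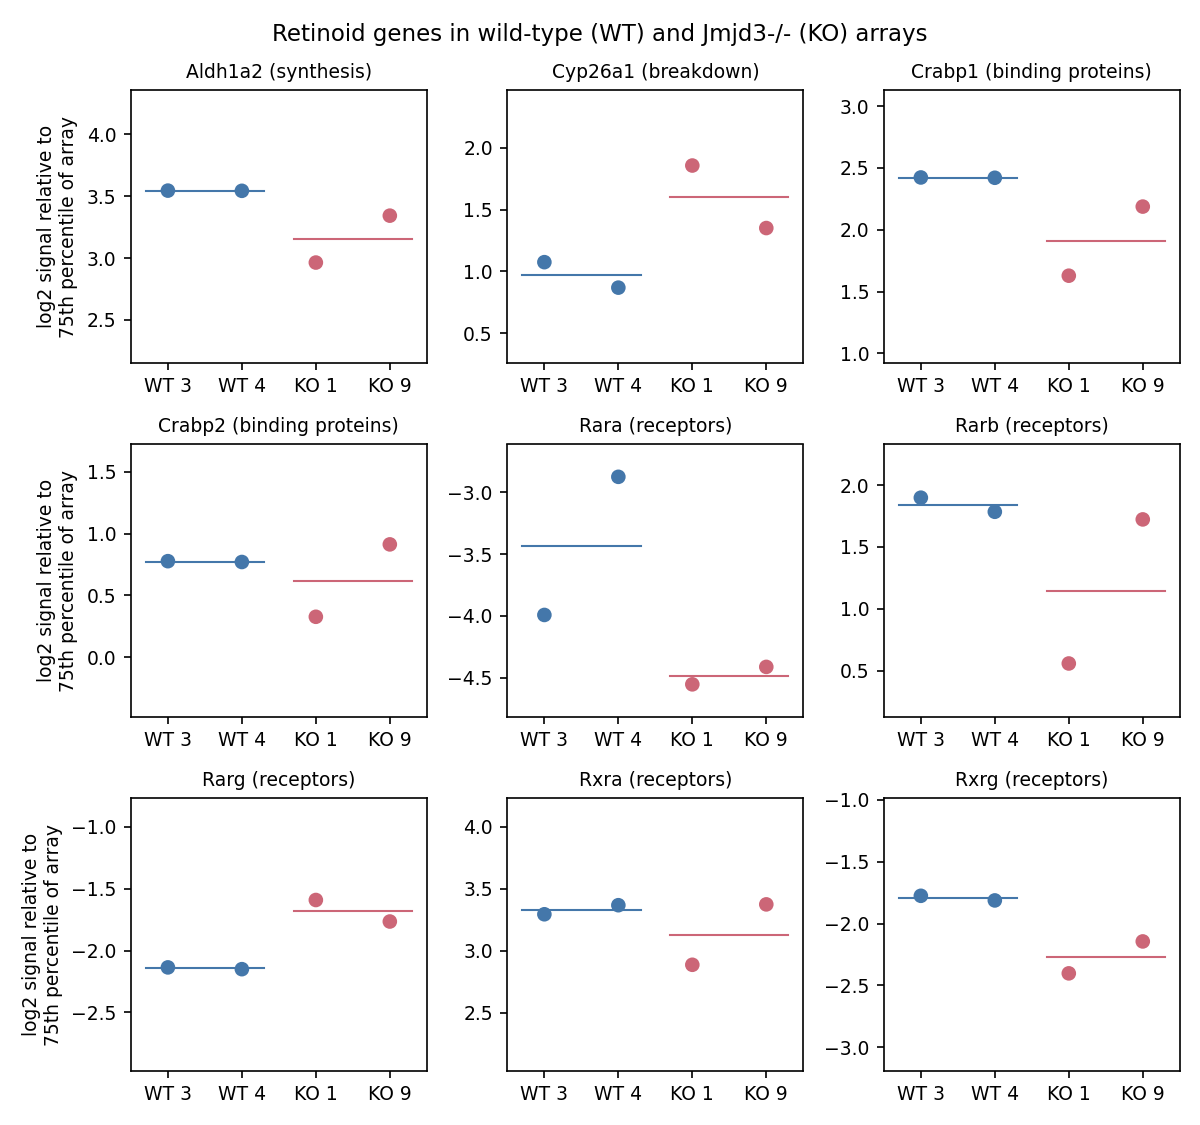
Normalised log2 signal (y axis, relative to the 75th percentile of each array) of the 9 retinoid genes on wild-type arrays 3 and 4 (WT, blue) and Jmjd3-/- arrays 1 and 9 (KO, red); points are arrays, lines are genotype means, and every panel spans the same height. Wild-type points nearly coincide for all genes but Rara, Cyp26a1 and Rarb, and the Jmjd3-/- point of replicate 1 lies farther from wild-type than that of replicate 9 in every panel.

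Aldh1a2, the synthesis gene, had a normalised log2 signal of 2.96 and 3.34 in Jmjd3-/- samples 1 and 9 and of 3.55 and 3.54 in wild-type samples 3 and 4. Both Jmjd3-/- arrays were below both wild-type arrays. Jmjd3-/- averaged 76.3% of wild-type, a log2 difference of −0.39 (SE 0.15, limma adjusted p = 0.481), with a 95% interval from −0.83 to 0.05. Of all genes tested, 14.5% differed by more than Aldh1a2 in one direction or the other. It was −0.20 without Jmjd3-/- replicate 1 and −0.58 without replicate 9.

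Cyp26a1, the breakdown gene, had a mean difference of the opposite sign. Samples 1 and 9 of Jmjd3-/- read 1.86 and 1.35 on the normalised log2 scale, and samples 3 and 4 of wild-type read 1.08 and 0.87. Both Jmjd3-/- arrays were above both wild-type arrays, and the wild-type gap of 0.21 was smaller than the distance of either Jmjd3-/- array from the nearer wild-type array. The log2 difference was 0.63 (SE 0.21, 95% interval 0.03 to 1.23), or 1.55 times the wild-type mean, with a limma unadjusted p of 0.0428 and an adjusted p of 0.432. Without Jmjd3-/- replicate 1 it was 0.38 and without replicate 9 it was 0.88.

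Tail bud marker genes were also higher on both Jmjd3-/- arrays. Their signals, each divided by the 75th percentile of the array and summed over the 13 probed genes, came to 69.2 and 39.6 in Jmjd3-/- samples 1 and 9 against 20.6 and 22.8 in wild-type samples 3 and 4. All 13 had a positive difference without overlap of the genotypes, where 23% of all genes did. The marker lists were chosen with earlier results of these data known. In RNA of a whole tissue, fewer or more cells of a type and a change of RNA per cell cannot be told apart. For Aldh1a2, a gene of trunk mesoderm, the lateral plate and limb bud markers summed to 9.03 and 10.8 in Jmjd3-/- samples 1 and 9 against 13.4 and 11.4 in wild-type. All 12 were above background on all arrays, and 9 had a negative and 3 a positive difference. The somite markers summed to 52.6 and 48.9 against 46.2 and 47.6, although 8 of 10 had a negative difference. The part of these markers in the differences of Aldh1a2 and Cyp26a1 was not tested.

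The genes most like Aldh1a2 over the 4 arrays, by the root mean square distance between log2 values centred on the wild-type mean, were Nrsn1, Crat and Cotl1, at 0.01 each among 13582 genes. They differed by −0.40, −0.39 and −0.39. The genes most like Cyp26a1 were Xrn1, Rhox5 and Igf2r, at distances of 0.03, 0.05 and 0.05, with differences of 0.61, 0.63 and 0.62. These distances rest on 4 arrays. Genes chosen as nearest over the same arrays must have differences close to that of Aldh1a2 or Cyp26a1.

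**Figure D2:**
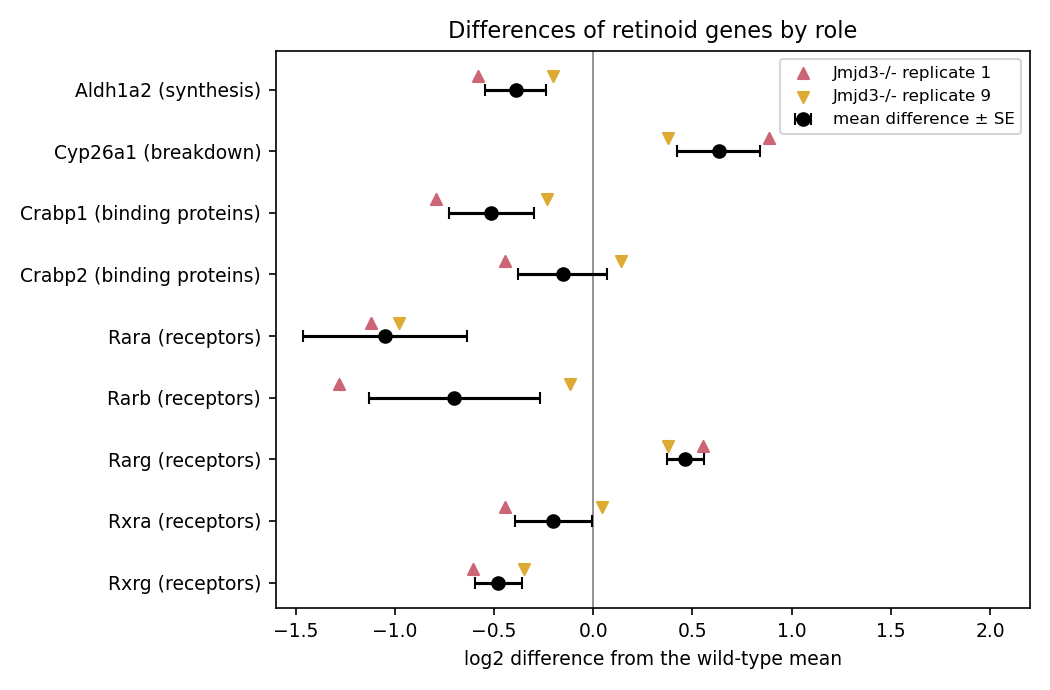
Log2 difference from the wild-type mean (x axis) of the 9 retinoid genes, grouped by role (y axis); black circles are the means of the 2 Jmjd3-/- arrays with the moderated SE, upward triangles are replicate 1 and downward triangles replicate 9. Cyp26a1 and Rarg lie to the right of 0 in both arrays, Crabp2 and Rxra have the arrays on opposite sides of 0, and Rarb has them furthest apart.

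The binding protein genes both had lower means in Jmjd3-/-, and the genotypes overlapped for Crabp2 but not for Crabp1. Crabp1, which encodes a retinoic acid binding protein expressed in embryonic neural tube and neural crest, had a normalised log2 signal of 1.63 and 2.19 in Jmjd3-/- samples 1 and 9 and of 2.42 in both wild-type replicates. Both Jmjd3-/- arrays were below wild-type, replicate 1 at −0.79 and replicate 9 at −0.23 from the wild-type mean on the log2 scale. The log2 difference of −0.51 (SE 0.21) did not pass (limma adjusted p = 0.497, 95% interval −1.12 to 0.10). Neural tube and neuron markers, of which 15 of 16 had a probe and 13 were above background on all arrays, summed to 6.35 and 8.94 in Jmjd3-/- samples 1 and 9 against 11.3 and 11.5 in wild-type. Neural crest markers, of which 9 of 11 were above background on all arrays and Erbb3 on none, summed to 5.61 and 6.91 against 7.46 and 7.58. All 15 neural tube and neuron markers tested had a negative difference, 12 of them without overlap of the genotypes. Of the 9 neural crest markers tested, 8 had a negative and 1 a positive difference, and 7 were lower without overlap. Of all genes, 23.7% were lower in this way. The part of both marker lists in the difference of Crabp1 was not tested.

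Crabp2, whose protein hands retinoic acid to its receptors in the nucleus, had a normalised log2 signal of 0.33 and 0.91 in Jmjd3-/- samples 1 and 9 and of 0.78 and 0.77 in wild-type samples 3 and 4. Replicate 1 was below wild-type and replicate 9 was above it, so the genotypes overlapped. The log2 difference was −0.15 (SE 0.22, limma adjusted p = 0.825, 95% interval −0.79 to 0.48), and it turned to 0.14 without Jmjd3-/- replicate 1.

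Among the retinoic acid receptors, Rarg was higher in both Jmjd3-/- arrays and Rara and Rarb were lower in both. Rarg, whose product is the receptor type known for expression in the tail bud and presomitic mesoderm, had the smallest p of the 9 genes, with rank 376 of 13583. The brighter of its 2 probes had a normalised log2 signal of −1.59 and −1.77 in Jmjd3-/- samples 1 and 9 and of −2.14 and −2.15 in wild-type samples 3 and 4. The Jmjd3-/- arrays were close together and both above wild-type. The log2 difference was 0.46 (SE 0.09, 95% interval 0.20 to 0.73), with a limma unadjusted p of 0.00924 and an adjusted p of 0.332. The dimmer probe, with a fit over all probes, gave 0.42 (SE 0.11). Over the arrays left out in turn the value of the brighter probe lay between 0.38 and 0.55. The part of the tail bud markers, which were higher on the same arrays, in the Rarg difference was not tested.

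Rarb, the receptor gene with the DR5 motif printed above, separated the Jmjd3-/- arrays most. Samples 1 and 9 of Jmjd3-/- read 0.56 and 1.72 on the normalised log2 scale, whereas samples 3 and 4 of wild-type read 1.90 and 1.78. Against the wild-type mean, replicate 1 stood at −1.28 and replicate 9 at −0.12 on the log2 scale. The log2 difference of −0.70 had an SE of 0.43 (limma adjusted p = 0.609, 95% interval −1.92 to 0.52).

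The Rarb probe was the only one of the 11 with more than 1 spot per array, and its 10 spots gave the reading error within an array. The spots spanned 0.49 to 0.62 in Jmjd3-/- replicate 1, 1.64 to 1.76 in replicate 9, 1.82 to 1.94 in wild-type replicate 3 and 1.69 to 1.83 in wild-type replicate 4. The SD between spots was 0.03 to 0.04 on each array. The gap of 1.16 between the Jmjd3-/- samples was therefore far wider than the spread of the spots, whereas the spots of Jmjd3-/- replicate 9 overlapped those of wild-type replicate 4. Spots of 1 array share the RNA and the labelling and are no replicates. The neural and lateral plate marker sums given above were likewise lowest in replicate 1, and their part in the Rarb difference was not tested.

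**Figure D3:**
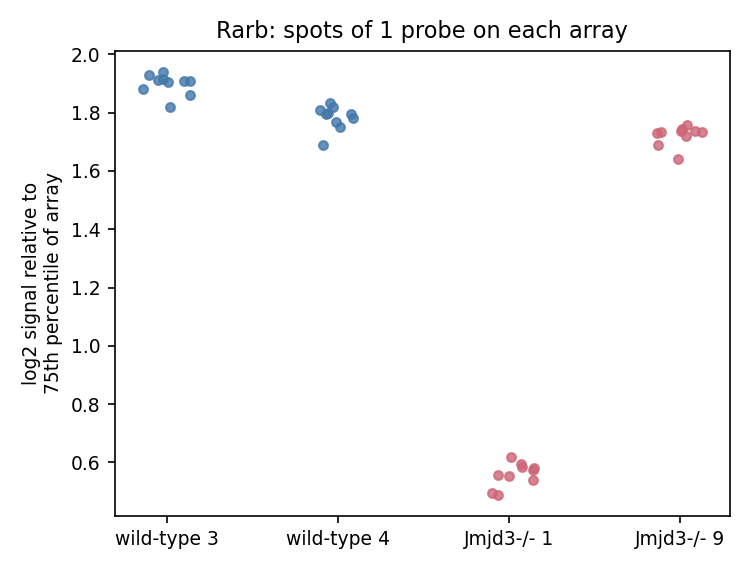
Normalised log2 signal (y axis, relative to the 75th percentile of the array) of the 10 Rarb spots on each of the 4 arrays (x axis); points are single spots, shifted sideways so that they can be told apart. The spots of Jmjd3-/- replicate 1 lie between 0.49 and 0.62 and those of the other 3 arrays between 1.64 and 1.94.

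Rara, which encodes the broadly expressed receptor type, gave a dim reading. Its processed intensity was 25.7 and 27.1 in Jmjd3-/- samples 1 and 9 and 37.6 and 85.4 in wild-type samples 3 and 4, or a normalised log2 signal of −4.55, −4.41, −3.99 and −2.88. Both Jmjd3-/- arrays were below both wild-type arrays, but the wild-type arrays were 1.12 apart on the log2 scale, which is wider than the log2 difference of −1.05 (SE 0.41, limma adjusted p = 0.481). That difference was −0.49 without wild-type replicate 4, −1.61 without wild-type replicate 3 and −0.44 with normexp background correction. Rara lies on chromosome 11, as Kdm6b does, and the other 8 genes lie on other chromosomes per the RefSeq table.

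Of the retinoid X receptors, which pair with many nuclear receptors, the genotypes overlapped for Rxra and not for Rxrg. Rxra had a normalised log2 signal of 2.89 and 3.37 in Jmjd3-/- samples 1 and 9 and of 3.29 and 3.37 in wild-type samples 3 and 4. Replicate 1 was below wild-type and replicate 9 lay within 0.01 of wild-type replicate 4. Its log2 difference was −0.20 (SE 0.19, limma adjusted p = 0.726, 95% interval −0.75 to 0.35), and 0.043 without replicate 1. A much dimmer Rxra probe gave −0.41 (SE 0.30), again with replicate 1 lowest, at −4.35 against −3.57 in replicate 9.

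Rxrg had a normalised log2 signal of −2.40 and −2.14 in Jmjd3-/- samples 1 and 9 and of −1.78 and −1.81 in wild-type samples 3 and 4. Both Jmjd3-/- arrays were below wild-type. The log2 difference was −0.48 (SE 0.12, 95% interval −0.81 to −0.14), with a limma unadjusted p of 0.0172 and an adjusted p of 0.358. Rxrb, the other gene of this family, differed by 0.003 (SE 0.12).

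Set side by side by role, the synthesis gene Aldh1a2 was at 76.3% of the wild-type mean and the breakdown gene Cyp26a1 at 155%. Another breakdown gene outside the 9, Cyp26b1, was at 47.6%, so Cyp26a1 does not stand for the role. The binding proteins Crabp1 and Crabp2 were at 70.0% and 89.9%, and the receptors ranged from 48.3% for Rara to 138% for Rarg. In Jmjd3-/- replicate 9 alone, against the wild-type mean, the log2 values were −0.20 for Aldh1a2, 0.38 for Cyp26a1, −0.23 for Crabp1, 0.38 for Rarg and −0.35 for Rxrg. In replicate 1 alone they were −0.58, 0.88, −0.79, 0.55 and −0.61. These 5 genes kept their direction in both samples, as did Rara and Rarb. The 2 samples were on the same side of the wild-type mean at 7 of the 9 genes and at 64% of all genes. Differences between roles were not tested.

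The other genes of the pathway were counted from lists of enzymes, carriers, receptors with partners, and target genes, and none of the 45 tested genes of 56 passed an adjusted p under 0.05 (limma). At an unadjusted p under 0.05, 7 were higher and 3 lower, where 5.15% of all genes were higher and 5.93% lower at that p, and the 3 include Ttr, the carrier of Rbp4, which was above background in wild-type alone. Of the other synthesis and retinaldehyde enzymes 9 of 11 tested had a negative difference, where 7217 of the 13583 genes did, with a median of −0.22. Of these enzymes 5 were lower without overlap of the genotypes, where 23.7% of all genes were. The smallest p were those of Dhrs4 at −0.35 (SE 0.12), Aldh1a1 at −0.32 (SE 0.15) and Rdh11 at −0.22 (SE 0.11). With normexp background correction Aldh1a1 differed by −0.081, without Jmjd3-/- replicate 1 Dhrs4 differed by −0.22, and without wild-type replicate 3 Rdh11 differed by −0.13. Rdh10, which makes the retinaldehyde that Aldh1a2 uses, differed by −0.17 (SE 0.15), and Dhrs3, which turns retinaldehyde back to retinol, by −0.39 (SE 0.21); both were chosen after their values were seen.

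Cyp26b1, the other breakdown gene with a probe, was opposite in sign to Cyp26a1. It read −1.83 and −0.67 on the normalised log2 scale in samples 1 and 9 of Jmjd3-/-, with −0.19 and −0.17 in samples 3 and 4 of wild-type. Both Jmjd3-/- arrays were below wild-type. The log2 difference was −1.07 (SE 0.43, limma adjusted p = 0.483). It was −1.65 without Jmjd3-/- replicate 9 and −0.49 without replicate 1. Cyp26b1 is known for expression in the hindbrain and limb bud. Hindbrain and branchial arch markers summed to 7.10 and 9.53 in Jmjd3-/- samples 1 and 9 against 13.4 and 13.8 in wild-type. Of these markers 8 of 10 were above background on all arrays and Otx2 on none. Among the 8 tested, 6 had a negative difference, 5 of them without overlap of the genotypes. The 2 with a positive difference did not overlap either. Of all genes, 23.7% were lower and 23% higher without overlap. Of the 6, 1 passed an adjusted p under 0.05 (limma). The part of these markers in the difference of Cyp26b1 was not tested.

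Of the 3 genes of uptake and transport above background on all 4 arrays, Stra6 and Rbp4 had negative differences. Stra6, the cell surface receptor that takes up retinol, had a normalised log2 signal of 0.32 and 1.82 in Jmjd3-/- samples 1 and 9 and of 2.47 and 1.80 in wild-type samples 3 and 4, so that replicate 9 lay within the wild-type range. Rbp4, the retinol carrier of the blood, differed by −0.75 (SE 0.41), with 1.46 and 2.55 in Jmjd3-/- samples 1 and 9 against 2.67 and 2.84, and by −0.20 without replicate 1. Ttr, which carries Rbp4, was well above background on both wild-type arrays and on neither Jmjd3-/- array. It therefore entered the test through wild-type alone. Its Jmjd3-/- signal was still above the lowest signal of any detected probe. The mean signal of Ttr was 1.52-fold lower in Jmjd3-/-, a point estimate that is no lower bound. This size depends on the processing: the log2 difference of −0.60 (limma adjusted p = 0.418) became −0.12 with normexp background correction and −0.42 without wild-type replicate 3.

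Among receptors and partners all 10 tested genes had a positive difference, where 6366 of the 13583 genes did, with a median of 0.18. This is a count of signs, and the smallest of these differences was that of Rxrb, at 0.003 (SE 0.12). Of the 10, 4 were higher without overlap of the genotypes, where 23% of all genes were. The smallest p were those of Rere, a coactivator of retinoic acid signalling, at 0.39 (SE 0.13), the receptor coactivator Ncoa2 at 0.29 (SE 0.12) and the nuclear receptor binding gene Nsd1 at 0.21 (SE 0.12). A second Nsd1 probe, above background on all 4 arrays, gave −0.021, and the mean of the probes 0.095. Without Jmjd3-/- replicate 1 the differences of Rere, Ncoa2 and Nsd1 were 0.25, 0.15 and 0.079. The median of the 10 was 0.35 in replicate 1 and 0.07 in replicate 9.

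**Figure D4:**
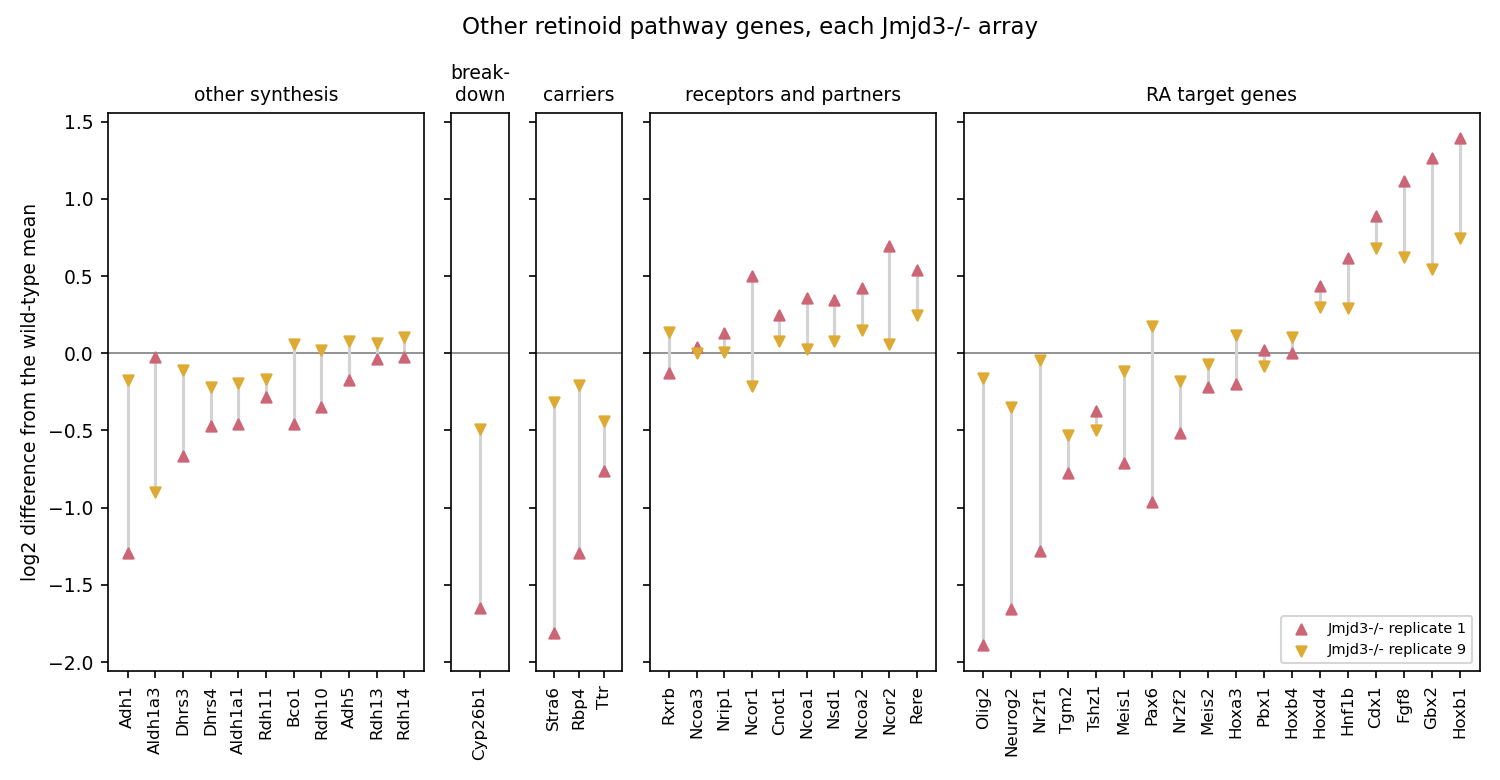
Log2 difference from the wild-type mean (y axis) of 43 of the 45 other pathway genes tested, in Jmjd3-/- replicate 1 (upward triangles) and replicate 9 (downward triangles), joined by a grey line for each gene (x axis) and grouped by list. Most synthesis enzymes lie below 0 and most receptor partners above it, Ttr is drawn although it was not well above background on the Jmjd3-/- arrays, and the target genes range from Olig2 at the low end to Hoxb1 at the high end.

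Known target genes of retinoic acid lay on both sides of the wild-type mean. Of 19 tested, 8 had a positive and 11 a negative difference, with a median of −0.04. Without overlap of the genotypes there were 7 in each direction, where 23% of all genes were higher and 23.7% lower in this way. At an unadjusted p under 0.05 (limma), 6 were higher and 2 lower, where 5.15% and 5.93% of all genes were. The list was not divided by whether retinoic acid raises or lowers a gene, so these counts and the median do not show a response to it. The gene with the smallest p was Cdx1, a caudal homeobox gene, at 0.79 (SE 0.11, limma adjusted p = 0.233), and at 0.49 with normexp background correction. Tgm2, the transglutaminase gene, was also among those with the smallest p, at −0.65 (SE 0.12, limma adjusted p = 0.330). Cdx1 and Fgf8 are also on the tail bud marker list, and Olig2, Pax6 and Neurog2 are also on the neural list. The dimmer probes of Tgm2 disagreed, with −0.44 and 0.01, and the mean of the probes gave −0.36. Of the 31 genes with a DR5 in their RefSeq promoter, 6 were tested on the arrays, Cyp26a1 and Rarb among them.

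Markers of erythroid cells and of cardiomyocytes also had lower sums in Jmjd3-/-. Erythroid markers, of which 10 of 10 were above background on all arrays, summed to 362.0 and 511.3 in Jmjd3-/- samples 1 and 9 against 555.0 and 706.5 in wild-type samples 3 and 4. Of these 10, 9 had a negative and 1 a positive difference. Cardiomyocyte markers, of which 7 of 9 were above background on all arrays, summed to 4.63 and 6.60 against 13.6 and 8.71. Of these 9, 7 had a negative difference, 6 of them without overlap of the genotypes. The 2 with a positive difference did not overlap either, where 23.7% of all genes were lower and 23% higher in this way. Both sums were lower on both Jmjd3-/- arrays and lowest in replicate 1, and their part in the differences of the retinoid genes was not tested.

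**Figure D5:**
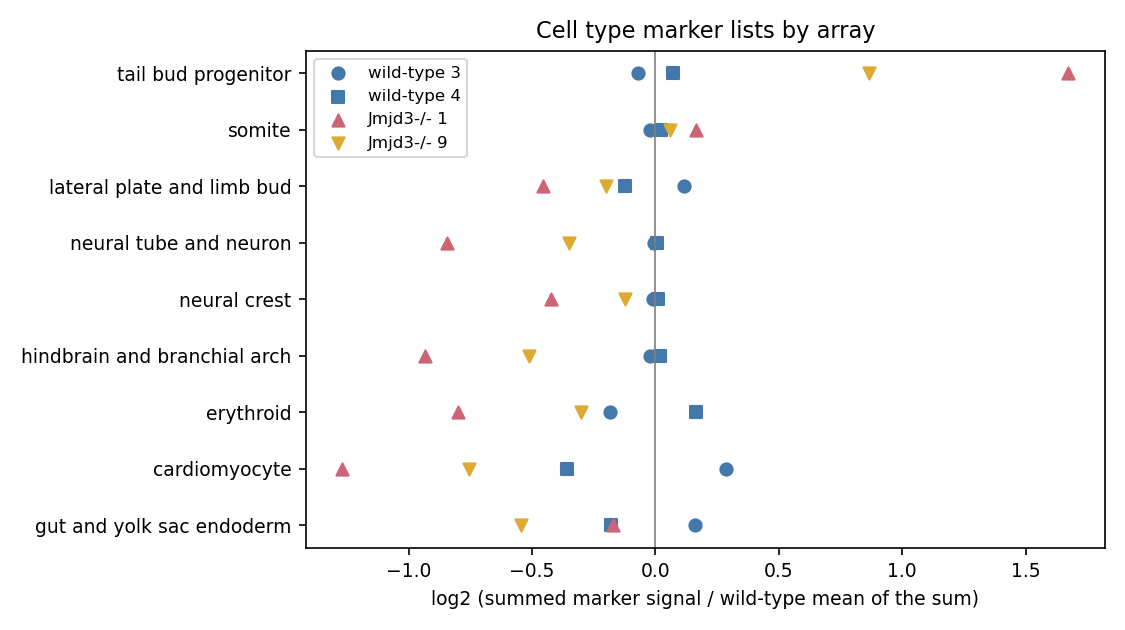
Log2 of the summed marker signal on each array over the wild-type mean of that sum (x axis) for 9 lists of cell type markers (y axis); blue circles and squares are wild-type samples 3 and 4, red triangles Jmjd3-/- replicate 1 and yellow triangles replicate 9. The tail bud and somite sums are higher on both Jmjd3-/- arrays and the lateral plate, neural, neural crest, hindbrain, erythroid and cardiomyocyte sums are lower, each with replicate 1 farther from wild-type, and the endoderm sums overlap.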

How the data were processed

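Per-spot fluorescence intensity was deposited in arbitrary units, as written by Agilent Feature Extraction 10.7.3.1 per the submitters' processing notes and corrected for background and spatial trend by that software per the file headers. A deposited table of log2 values was set against the scanner values and equals them after scaling to the 75th percentile and centring on wild-type (99.9% of probes within 0.01; column medians −0.02 and 0.05 for Jmjd3-/- samples 1 and 9, 0.02 and −0.02 for wild-type samples 3 and 4). Its scale, centring and direction are not stated and were found in this way. The 4 arrays lay on 1 slide with the Jmjd3-/- arrays at its ends, so position and genotype cannot be told apart.

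Of 45018 spots, 1639 control spots were left out. Spots of a probe were averaged on the log2 scale, and arrays were aligned by subtracting their 75th percentile. RefSeq accessions (GRCm38.p6) or synonyms named 26690 and 28 probes. The file headers name build mm9, so gene coordinates were not used. The brightest probe stood for a gene, and testing required it to be well above background on both arrays of 1 or the other genotype. The test was that of limma 3.58.1 under R 4.3.3 (lmFit, eBayes, Benjamini-Hochberg over 13583 genes), after a test on simulated data. The number of arrays limits the precision.

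The members, lists and tests were chosen with earlier results of these data known. The text names all 9 members, Kdm6b, up to 3 genes by p from each pathway list and 3 nearest genes for Aldh1a2 and Cyp26a1. A target gene that this rule names is not reported here, and 2 of the pathway genes are not drawn. Normexp used the spot median, since the files hold no spot mean.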

Additional observations from a re-analysis of the deposited data

How the results depend on the processing

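The 9 retinoid genes were recomputed under 14 alternatives each, and none passed an adjusted p under 0.05 in any of them. Their direction held in all but 2 cases, both without Jmjd3-/- replicate 1, where Crabp2 was 0.14 and Rxra 0.043. With 1 array left out in turn, the log2 differences ranged from −0.58 to −0.20 for Aldh1a2, 0.38 to 0.88 for Cyp26a1, −0.79 to −0.23 for Crabp1, −0.45 to 0.14 for Crabp2, −1.61 to −0.49 for Rara, −1.28 to −0.12 for Rarb, 0.38 to 0.55 for Rarg, −0.44 to 0.043 for Rxra and −0.61 to −0.35 for Rxrg. The lone array of a genotype is then assumed to vary like the other pair. In an alternative chosen after seeing the data, the number of these genes with a positive difference was 2 to 4 and with a negative one 5 to 7 over arrays left out, and 0 to 8 had an unadjusted p under 0.05. Over all genes, arrays left out gave 0 to 51 calls as higher and 0 to 125 as lower, the most without Jmjd3-/- replicate 9. Calls were 1 higher and 1 lower with normexp, 0 and 0 with quantile normalisation, with dim probes kept, or with detection required on all 4 arrays, 1 higher with a trend and robust prior, and 4 lower with median scaling or the mean of a gene's probes, all by limma, where 1504 genes had an unadjusted p under 0.05 with the planned processing. The cause of these shifts was not tested. List medians ranged over arrays left out from −0.35 to −0.11 for synthesis enzymes, −1.03 to −0.26 for carriers with Ttr included, 0.070 to 0.35 for receptors and partners and −0.20 to 0.11 for target genes. The list of other breakdown enzymes held 1 tested gene, Cyp26b1, which ranged from −1.65 to −0.49. No paired analysis was possible because the genotypes share no replicate number.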

Other observations

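Stra8, a gene named for its induction by retinoic acid, was well above background on 1 of 4 arrays and so was not tested. Jmjd3-/- replicate 1 read −2.58 on the normalised log2 scale and replicate 9 read −5.96, against −6.23 and −6.32 in wild-type samples 3 and 4. Adh1, an alcohol dehydrogenase gene that oxidises retinol, had a normalised log2 signal of −1.997 in Jmjd3-/- replicate 1 and −0.88 in replicate 9, against −0.67 and −0.74 in wild-type, and its dimmer probe was again lowest in replicate 1. Aldh1a3, another retinaldehyde dehydrogenase gene, was instead lowest in Jmjd3-/- replicate 9, at −2.60 against −1.73 in replicate 1 and −1.81 and −1.61 in wild-type. These genes were chosen after their values were seen.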
